A study of Mus musculus with 14 samples.

Results

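The acetyltransferase module and the structural core of SAGA (Spt-Ada-Gcn5 acetyltransferase) were followed in mammary gland epithelial cells through 10 genes, *Kat2a*, *Kat2b*, *Tada2b*, *Tada3*, *Sgf29*, *Supt20*, *Supt7l*, *Supt3*, *Taf5l* and *Taf6l*. The genes were taken by symbol, each matched 1 row, and they were 10 of the 16124 genes in the table. RNA was sequenced from 7 WT and 7 *Usp22 OE/OE* mice, littermate-matched in 7 pairs that the labels number 1 and 3 to 8, with 1 library per mouse. All mice were nulliparous females aged 3.5 months, and the labels name no treatment. The *OE/OE* mice carried, on both *ROSA26* alleles, a mouse *Usp22* cDNA with FLAG and MYC tags driven by the CAGGS promoter, whose LoxP-flanked STOP cassette had been removed by *ZP3-Cre*, a recombinase active in the oocyte. The transgene was therefore on in every tissue from embryogenesis on, and the strain of the mice was not given in the sources used here.

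SAGA is a coactivator that modifies histones at the promoters of active genes. Its acetyltransferase module acetylates histone H3 through KAT2A (GCN5) or KAT2B (PCAF), which take the same place in the complex and so are alternatives to each other, while USP22 is the catalytic subunit of a separate module that removes ubiquitin from histone H2B. The core subunits hold the modules together, and TADA3, SGF29 and both acetyltransferases are shared with another complex, ATAC, whereas TADA2B belongs to SAGA and its paralog TADA2A to ATAC. The comparison of genotypes asked whether the mRNAs of these partners differed when the deubiquitinase was made in large excess.

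*Usp22* itself separated the genotypes. Its normalized count ran from 3500.0 to 5380 (median 4119) in the WT mice and from 74948 to 144288 (median 107962) in the *OE/OE* mice. The groups did not overlap, and *Usp22* was 25.1-fold higher (log2 change 4.65 ± 0.11 SE, 95% confidence interval of the fold 21.3 to 29.6, adjusted p = 4.74e-08 with limma) and higher in 7 of 7 pairs. Transcripts of the native gene and of the cDNA cannot be told apart in these counts. Per kb of annotated exon, *Usp22* stood at 4.18 ± 0.860 times the median of the 10 subunits in WT and at 107 ± 28.6 times in *OE/OE* (mean ± SD, n = 7 each). Both values used the exon length of the native gene, 4.886 kb. Transcripts of the cDNA may differ in length, so the *OE/OE* value is approximate.

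The libraries held 20125106 to 41835978 fragments counted in the genes of the table, and those of the WT mice of pairs 1 and 8 were the shallowest. The pan-epithelial markers (6 genes, among them *Epcam*, *Krt8* and *Krt18*) summed to 258470 to 425050 normalized counts in WT and 277850 to 415890 in *OE/OE*, so the defining markers of the labelled cell type were present in every library, and no marker of any list was at 0 in any library. Markers of other cell types were present as well. The 8 fibroblast markers summed to 87324 to 175706 in WT and 56915 to 129896 in *OE/OE*, lower in *OE/OE* in 5 pairs and higher in 2. The 8 endothelial markers summed to 51520 to 76652 in WT and 18050 to 107309 in *OE/OE*, lower in 4 pairs and higher in 3. The *OE/OE* library of pair 4 stood apart. It was the highest *OE/OE* library for 31.7% and the lowest for 31.3% of all genes, its 8 endothelial markers were all the lowest of the group (sum 18050 against 61285 or more), and its 8 proliferation markers all the highest (sum 11315 against 4810 or less). Changes of the 10 subunits and of their ratios are therefore also given without pair 4. In these bulk samples, fewer cells of a type and less RNA per cell cannot be told apart.

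The mRNAs of the 10 subunits differed between genotypes by less than the spread between pairs. With limma on log2(normalized count + 1) and the pair as a block, 0 of 10 passed an unadjusted p of 0.05 or less, where 3.81% of all genes did. The count was also 0 with edgeR and 0 with DESeq2 on the recovered fragments, which called 3.70% and 3.88% of all genes. Over all 16124 genes, 2 had an adjusted p under 0.05 (0.0124%), and the adjusted p of each subunit was 1.00. None moved the same way in all 7 pairs, against 1.51% of all genes, and for none were the genotypes without overlap, against 0.0434%. The log2 changes ran from -0.13 for *Sgf29* to 0.11 for *Supt20*, 6 positive and 4 negative, with a median of 0.03 beside -0.0015 over all genes. Their absolute median was 0.049, and that of all genes 0.090. The count was again 0 of 10 without pair 4, where 8.47% of all genes passed, with 4 changes positive and 6 negative. When the score of the adipocyte markers entered the model, 1 change was positive (*Kat2b*) and 9 were negative, down to -0.27 for *Supt7l*.

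The 95% confidence intervals give the precision behind these estimates. The lowest bound was a log2 change of -0.34 for *Supt7l* (0.788-fold) and the highest 0.33 for *Kat2a* (1.25-fold), so that a change of these mRNAs beyond those bounds lay outside the interval of every subunit. The standard errors of the 10 genes, 0.073 to 0.126, stood beside an interquartile range of 0.095 to 0.221 over all genes. A test that misses its threshold does not show that levels were equal.

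**Figure D1:**
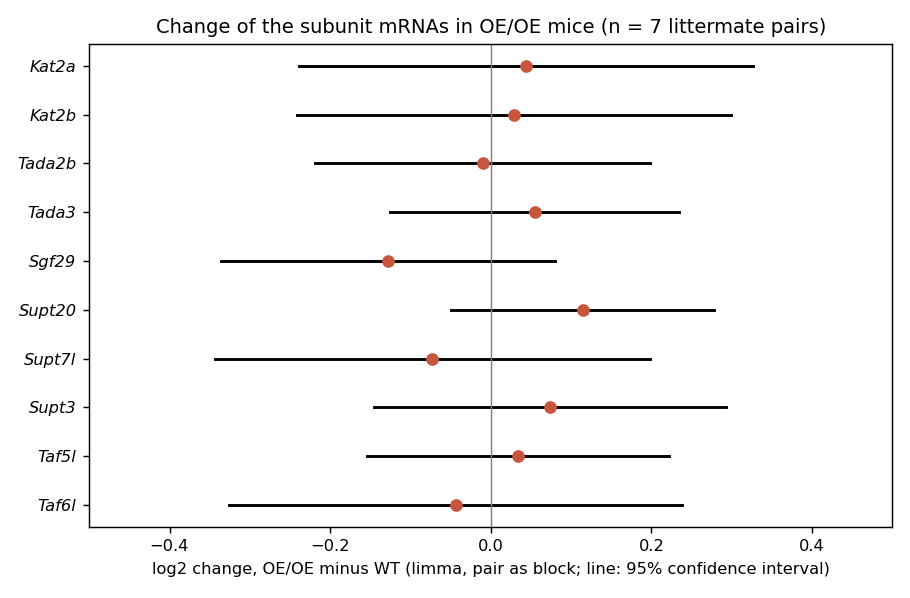
Log2 change of each subunit mRNA in *OE/OE* against WT littermates (horizontal axis, log2 units; limma with the pair as a block, 7 pairs). Points are estimates and lines are 95% confidence intervals, and all 10 intervals cross 0, between -0.34 and 0.33.

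*Kat2a* and *Kat2b* encode the catalytic subunits. Their promoters, which RefSeq places on GRCm38.p6 from 250 bases before to 50 after the transcript start, are shown because these paralogs went opposite ways in the mouse that stood apart. *Kat2a* lies on chromosome 11 (100704746 to 100712465, minus strand) and its window at chr11:100712418-100712717, and *Kat2b* lies on chromosome 17 (53566861 to 53672720, plus strand) with its window at chr17:53566721-53567020. Both are printed 5′ to 3′ on the strand of the gene, and capitals mark matches to 9 short motifs searched on both strands.
Kat2a: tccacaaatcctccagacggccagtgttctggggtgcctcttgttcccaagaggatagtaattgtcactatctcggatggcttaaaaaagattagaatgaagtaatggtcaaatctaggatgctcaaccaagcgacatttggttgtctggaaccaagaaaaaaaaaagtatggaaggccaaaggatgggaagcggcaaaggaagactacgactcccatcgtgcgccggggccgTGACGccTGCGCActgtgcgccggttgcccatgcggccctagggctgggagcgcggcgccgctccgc
Kat2b: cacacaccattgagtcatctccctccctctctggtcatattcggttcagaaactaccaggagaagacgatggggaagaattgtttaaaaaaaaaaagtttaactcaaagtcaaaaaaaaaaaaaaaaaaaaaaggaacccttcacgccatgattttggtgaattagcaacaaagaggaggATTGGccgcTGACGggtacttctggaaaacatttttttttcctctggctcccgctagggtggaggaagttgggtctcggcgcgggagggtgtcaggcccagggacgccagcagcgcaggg

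The *Kat2a* window held a CRE core (TGACG, in 20.8% of 32851 promoters of this length) and, without overlap, an NRF1 core (TGCGCA, in 7.76%). The *Kat2b* window held a CCAAT box (CCAAT, in 37.4%), read on the other strand, and a CRE core beside it. The median promoter had 7 CpG dinucleotides and 52.7% GC. The *Kat2b* window had 11 CpG and 47.0% GC, fewer than the 19 CpG and 54.3% GC of *Kat2a*. Neither matched the ETS core (CCGGAA), the GC box (GGGCGG), the TATA box (TATAAA), the E-box (CACGTG) or the E2F motifs (searched as TTTGGCGC and also as TTTCCCGC). Over the 10 subunits, the NRF1 core was found in 4 promoters (*Kat2a*, *Sgf29*, *Supt20* and *Supt3*), the ETS core in 4 (*Tada2b*, *Tada3*, *Supt20* and *Taf5l*, against 14.9% of all promoters) and the CRE core in 4. The GC box was in 5 (35.7% of all), the CCAAT box in 5, the E-box in 1 (7.15%), the TATA box in 0 (13.6%) and the E2F motifs in 0 (0.514% and 1.07%). Such matches describe the letters only.

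The normalized count of *Kat2a* ran from 919.8 to 1184.5 (median 1029.5) in WT and from 813 to 1583 (median 1028) in *OE/OE*. The medians were close, and the highest *OE/OE* value came from pair 4, 1.57 times the median of the other *OE/OE* mice. WT mice averaged 1020.2 ± 97.7 and their *OE/OE* littermates 1069 ± 249 (SD, n = 7). The log2 change of *Kat2a* was 0.04 ± 0.13 SE, with 3 of 7 pairs higher (limma p = 0.737, exact two-sided sign-flip p = 0.859). The direction rested on pair 4, without which the mean log2 ratio of *Kat2a* was -0.08 ± 0.19 SD (exact sign-flip p = 0.312), and the adipocyte covariate gave -0.22.

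*Kat2b* ran from 1573 to 2608 (median 2203) in WT and from 1129 to 2887 (median 2286) in *OE/OE*. Both ends of the whole set of 14 were *OE/OE* mice, that of pair 4 at the bottom, at 0.468 times the median of the other *OE/OE* mice, and that of pair 5 at the top. The log2 change was 0.03 ± 0.12 SE with 5 of 7 pairs higher (limma p = 0.815, exact sign-flip p = 0.797). Without pair 4 the mean log2 ratio of *Kat2b* was 0.15 ± 0.20 SD, with p = 0.0938 by exact sign flips of the 6 pairs. *Kat2b* was the 1 subunit that passed the threshold when the adipocyte marker score was a covariate (log2 change 0.35 ± 0.10 SE, limma adjusted p = 0.123), a fit in which 18.8% of all genes did. The adipocyte score, the mean log2 value of 8 markers, was lower in the *OE/OE* mouse in 6 of 7 pairs (log2 difference -0.95 ± 0.97 SD, exact sign-flip p = 0.0625). That fit tested only the genotype change beside the score, and the part of the score itself was not tested. The summed markers, 8969 to 29339 in WT and 5214 to 26903 in *OE/OE*, were lower in 4 and higher in 3 of the 7 pairs, so sum and score differed in direction in some pairs.

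**Figure D2:**
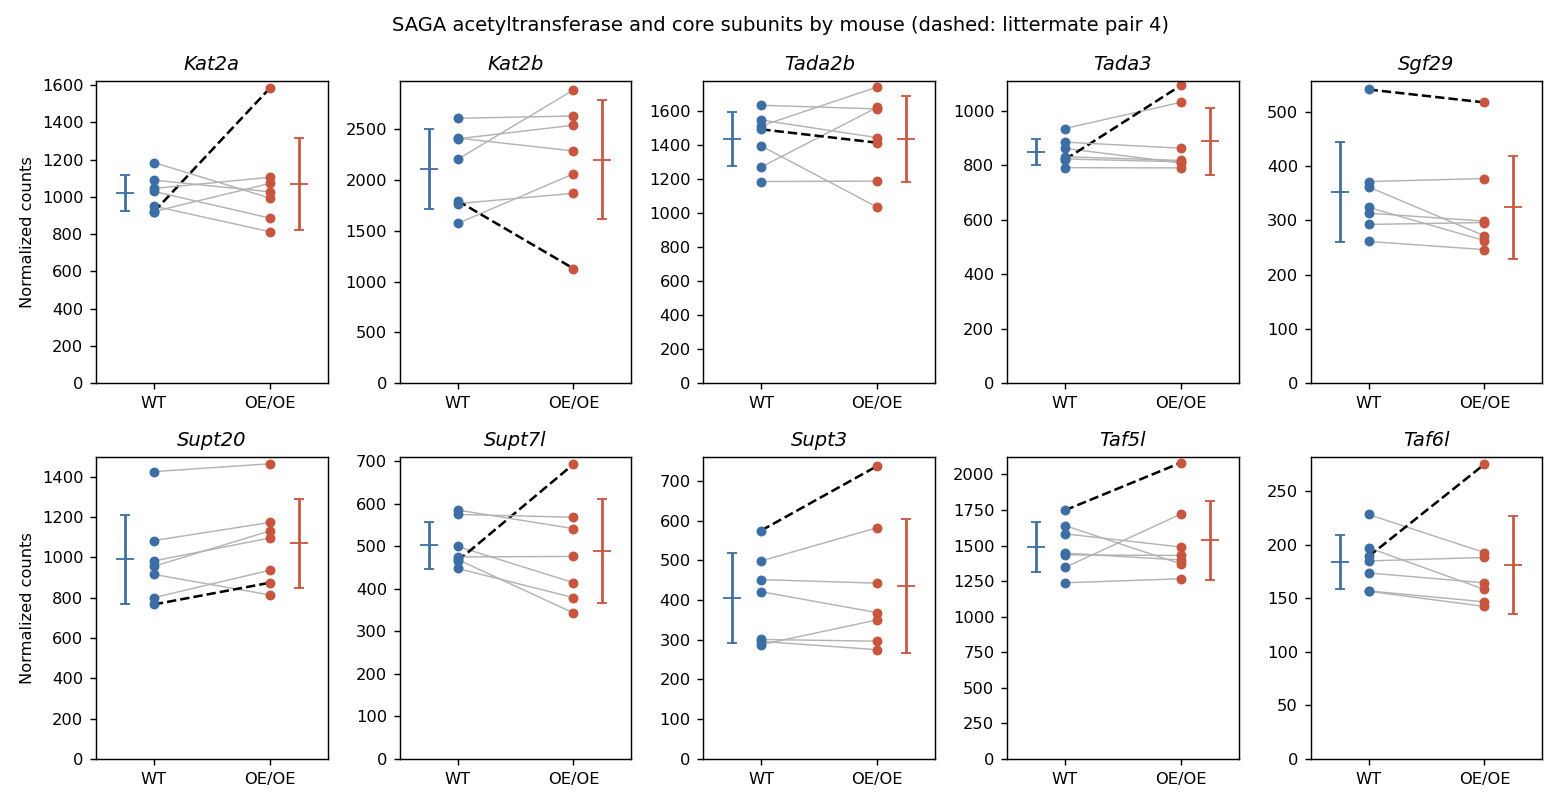
Normalized counts (vertical axes, from 0) of the 10 subunit mRNAs in each WT (blue) and *OE/OE* (red) mouse, with lines joining littermates and bars for mean ± SD (n = 7). The groups overlap in every panel, and the dashed line, pair 4, climbs for *Kat2a* from 919.8 to 1583 and drops for *Kat2b* from 1796 to 1129.

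The other 3 genes of the acetyltransferase module hold the enzyme or read the histone tail. *Tada2b*, whose product binds the acetyltransferase and stimulates it on nucleosomes, counted 1186 to 1635 (median 1493) in WT and 1036 to 1742 (median 1444.5) in *OE/OE*. Its means were nearly level at 1435 ± 159 and 1437 ± 252 (log2 change -0.01 ± 0.09 SE, limma p = 0.917, exact sign-flip p = 0.969), although single pairs ranged from -0.43 to 0.35. Leaving out pair 4 gave *Tada2b* a mean log2 ratio of 0.0014 ± 0.27 SD.

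*Tada3*, which encodes an adaptor of the module, had the tightest WT values of the set, with a coefficient of variation of 5.68%. They ran from 792 to 935 (median 832), and the *OE/OE* values from 791 to 1093 (median 818). The *OE/OE* mice of pairs 4 and 1 lay above the others, and 5 of 7 pairs were lower in *OE/OE* while the mean log2 change was 0.05 ± 0.08 SE (limma p = 0.512, exact sign-flip p = 0.594). Without pair 4 the mean log2 ratio was -0.0052 ± 0.078 SD.

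*Sgf29* encodes the reader of methylated histone H3 in the module, and it showed the most negative estimate. It counted 261 to 541 (median 324) in WT and 246 to 517 (median 296) in *OE/OE*, and both extremes at the top came from pair 4. *Sgf29* was lower in 5 of 7 pairs, with ratios of -0.41 in pair 8 and -0.30 in pair 1 and between -0.09 and 0.02 in the rest. The log2 change of -0.13 ± 0.09 SE did not pass the test (limma p = 0.200, exact two-sided sign-flip p = 0.0625, where 7 pairs allow 0.0156 at the least). Without pair 4 it averaged -0.14 ± 0.18 SD (exact sign-flip p = 0.125). Exons of *Sgf29* share 12.8% of their length with genes on the opposite strand, *2510046G10Rik* and *Sult1a1*. Whether the counting used strand was not given in the sources used here, so reads from such stretches cannot be told apart.

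Among the core genes, *Supt20* had the most positive estimate. The yeast counterpart of its product is needed for SAGA to stay whole. *Supt20* counted 766 to 1425 (median 955) in WT and 813 to 1464 (median 1096) in *OE/OE*, with pair 5 the highest in both. *Supt20* was higher in 6 of 7 pairs, but the log2 change of 0.11 ± 0.07 SE did not pass (limma p = 0.150, exact sign-flip p = 0.0938). The exception was pair 1 at -0.17. Leaving out this pair left only pairs with *Supt20* higher, so the exact sign-flip p then took the smallest value that 6 pairs allow. That outcome was set by which pair was dropped and is no separate test of *Supt20*. Without pair 1 the log2 change of *Supt20* was 0.16 and passed the unadjusted threshold (limma p = 0.0442, exact sign-flip p = 0.0312, 6 of 6 pairs higher), as 7.42% of all genes then did, and its adjusted p by limma was 0.666. Without pair 4 the mean was 0.10 ± 0.15 SD (exact sign-flip p = 0.188), and with the adipocyte covariate the log2 change of *Supt20* was -0.00018. *Supt20* shares 11.8% of its exon length with *Gm21958* and *Exosc8* on the opposite strand, and *Tada2b* 10.8% with *Grpel1*. Of the other subunits, *Taf6l* shares 5.88% with *AC025794.2* and *Supt7l* 0.901% with *Slc4a1ap*, and the rest share no exon.

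*Supt7l* and *Supt3* encode histone-fold proteins of the core. *Supt7l* counted 447 to 585 (median 475) in WT and 343 to 692 (median 476) in *OE/OE*. The *OE/OE* values spread more widely at both ends, from pair 3 at the bottom to pair 4 at the top, and the log2 change was -0.07 ± 0.12 SE (limma p = 0.561, exact sign-flip p = 0.562). Without pair 4, *Supt7l* averaged -0.18 ± 0.17 SD on the log2 scale (exact sign-flip p = 0.0625).

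*Supt3* counted 288 to 575 (median 421) in WT and 275 to 738 (median 368) in *OE/OE*. Pair 4 was the highest in both genotypes, and the mice of pairs 5, 7 and 8 were low in both. The log2 change was 0.07 ± 0.10 SE with 3 of 7 pairs higher (limma p = 0.468, exact sign-flip p = 0.391), and without pair 4 the mean was 0.03 ± 0.19 SD.

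*Taf5l* and *Taf6l* encode the SAGA counterparts of TAF5 and TAF6, subunits of the general factor TFIID. *Taf5l* counted 1238 to 1748 (median 1447) in WT and 1266.5 to 2082 (median 1430.3) in *OE/OE*, a log2 change of 0.03 ± 0.08 SE (limma p = 0.691, exact sign-flip p = 0.750) that became -0.0021 ± 0.20 SD without pair 4. *Taf6l*, the scarcest of the set with 112 to 287 fragments per library, counted 157 to 228 (median 185) in WT and 142 to 275 (median 164) in *OE/OE*. For both, the highest mouse of all 14 was the *OE/OE* mouse of pair 4. *Taf6l* was lower in 5 of 7 pairs with a log2 change of -0.04 ± 0.13 SE (limma p = 0.736, exact sign-flip p = 0.734), and without pair 4 it averaged -0.14 ± 0.12 SD (exact sign-flip p = 0.0625).

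In no pair did all 10 subunits move the same way, although single pairs leaned to 1 side. In pairs 1 and 3 to 8, in this order, 2, 6, 7, 5, 6, 3 and 2 subunits were above 0. The median ratios were -0.23, 0.05, 0.31, 0.00071, 0.0075, -0.02 and -0.05. In pair 4 the *OE/OE* mouse had the highest *OE/OE* value for 7 of the 10 subunits and the lowest for *Kat2b*. Its log2 ratio lay outside the range of the other 6 pairs for 6 subunits, at 0.78 for *Kat2a* (others -0.25 to 0.22), 0.57 for *Supt7l*, 0.54 for *Taf6l*, 0.41 for *Tada3*, 0.36 for *Supt3* and -0.67 for *Kat2b* (others -0.08 to 0.39). Over all genes, pair 4 gave the highest or the lowest ratio for 60.5%, so 6 of 10 was close to the background. Pair 3 gave the highest ratio for 3 subunits and the lowest for 4, 7 of 10 in all, where it did so for 19.9% of all genes. The 4 with their lowest ratio in pair 3, *Kat2a* (-0.25), *Tada3* (-0.09), *Supt7l* (-0.45) and *Taf6l* (-0.32), were all among the 5 with their highest ratio in pair 4. The sum of the proliferation markers was 2481 in the WT and 502 in the *OE/OE* mouse of pair 3, and 250.1 in the WT and 11315 in the *OE/OE* mouse of pair 4. The sum also fell within pairs 1 (4798 to 1756), 5 (1970.1 to 922) and 6 (6460 to 4810). It rose within pairs 7 (686 to 727) and 8 (797 to 1227). The log2 ratios in pairs 1, 5, 6, 7 and 8, in this order, were as follows. *Kat2a* had -0.22, 0.22, -0.22, -0.08 and 0.08, and *Tada3* 0.14, -0.0017, -0.04, -0.02 and -0.02. *Supt7l* had -0.27, 0.0031, -0.24, -0.02 and -0.11, and *Taf6l* -0.24, -0.10, 0.02, -0.14 and -0.08. The part of proliferation in these ratios was not tested. A fit with the proliferation score as a covariate tested only the genotype change beside that score. In that fit, 0 of 10 subunits and 6.10% of all genes passed for genotype.

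**Figure D3:**
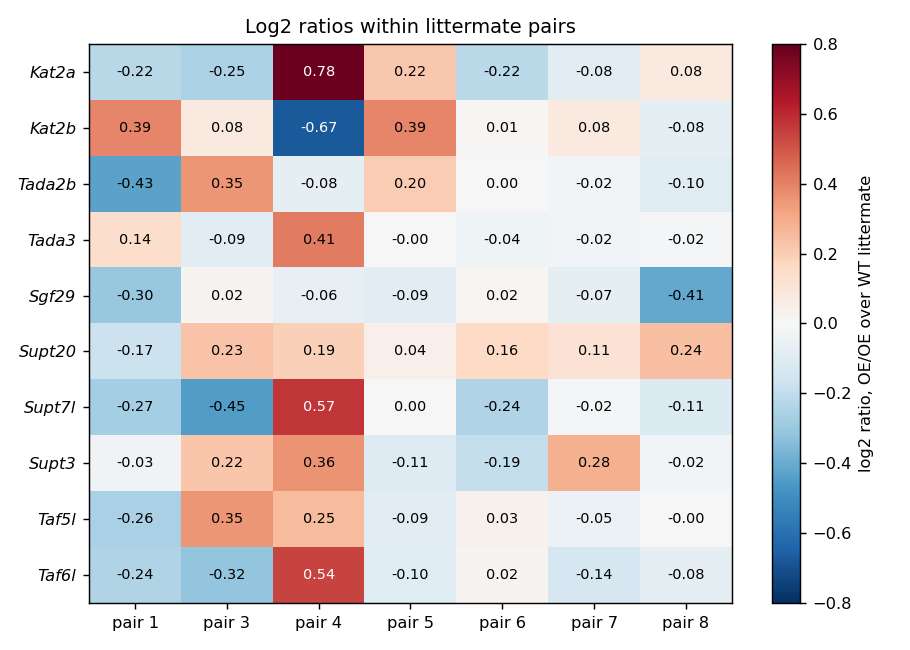
Log2 ratio of *OE/OE* over WT littermate for each subunit (rows) in each pair (columns), with blue for lower and red for higher in *OE/OE*. The column of pair 4 holds 0.78 for *Kat2a* and -0.67 for *Kat2b*, and no row has 1 colour throughout.

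The ratio of *Kat2a* to *Kat2b*, the alternative enzymes, was set per kb of annotated exon so that their levels could be compared. In WT the ratio of these levels ran from 0.552 to 0.937 (median 0.634), so *Kat2b* was the more abundant mRNA in all 7 mice. In *OE/OE* it ran from 0.471 to 0.744 in 6 mice and was 1.96 in that of pair 4, the only one of the 14 in which *Kat2a* exceeded *Kat2b*. The change in the log2 ratio was 0.01 ± 0.67 SD over 7 pairs, lower in 5 of them (exact two-sided sign-flip p = 1.00). Without pair 4 the mean was -0.23 (exact p = 0.0625, and 6 pairs allow 0.0312 at the least), and this direction holds only without that pair or, at -0.0095, without pair 8.

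**Figure D4:**
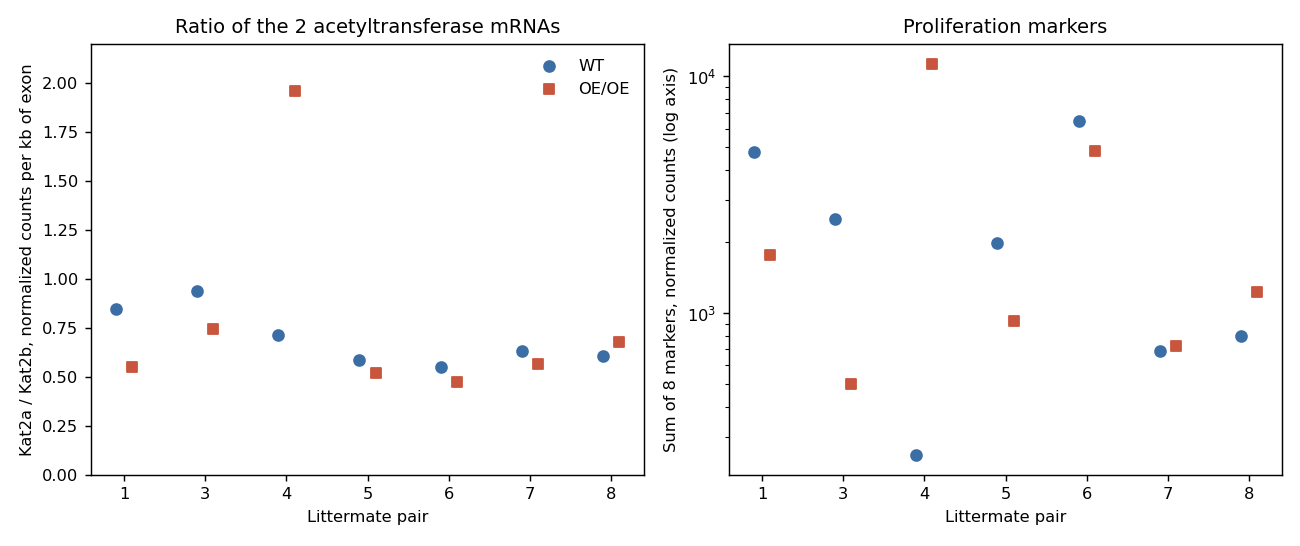
Left, ratio of *Kat2a* to *Kat2b* in normalized counts per kb of exon for each mouse (vertical axis, from 0) by littermate pair. Right, sum of 8 proliferation markers in normalized counts on a log axis, and in both panels the *OE/OE* mouse of pair 4 is the highest point, at 1.96 and 11315.

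Other paralogs with a partner outside this set gave 3 further ratios, and p-values were adjusted over the 4 ratios in all. *Tada2b*, the SAGA form, stood at 3.71 to 6.64 times the ATAC form *Tada2a* per kb in WT (median 4.26) and at 2.36 to 6.55 times in *OE/OE* (median 4.63), with the lowest value in pair 4. The log2 ratio changed by -0.12 ± 0.57 SD (exact sign-flip p = 0.859), and by 0.085 in the mean of the other pairs when pair 4 was left out. *Taf5l* was 4.14 to 6.41 times the TFIID gene *Taf5* in WT and 3.11 to 7.24 times in *OE/OE*, a change of -0.11 ± 0.21 SD that was lower in 5 of 7 pairs (exact p = 0.219, adjusted p = 0.875, and -0.16 without pair 4). *Taf6l*, by contrast, was the scarcer paralog, at 0.188 to 0.337 of *Taf6* in WT and 0.192 to 0.297 in *OE/OE* (change 0.02 ± 0.21 SD, exact p = 0.812, and -0.022 without pair 4). No ratio changed by more than its spread between pairs. The subunits thus sat well above their paralogs for *Tada2b* and *Taf5l* and below for *Taf6l* in both genotypes.

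Levels per kb of annotated exon in WT spanned 11.8-fold over the 10 mRNAs. From the top, *Kat2b* stood at 433 ± 81.3 normalized counts per kb, *Taf5l* at 418 ± 49.4, *Tada2b* at 378 ± 42.0 and *Kat2a* at 293 ± 28.1 (SD, n = 7). In the middle were *Tada3* at 219 ± 12.4, *Sgf29* at 195 ± 50.8 and *Supt20* at 158 ± 35.1, and these 7 lay above the median of all genes, 130.4. Below it were *Supt3* at 98.1 ± 27.4, *Supt7l* at 71.8 ± 7.90 and *Taf6l* at 36.6 ± 4.99. The order of the means was the same in *OE/OE*.

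**Figure D5:**
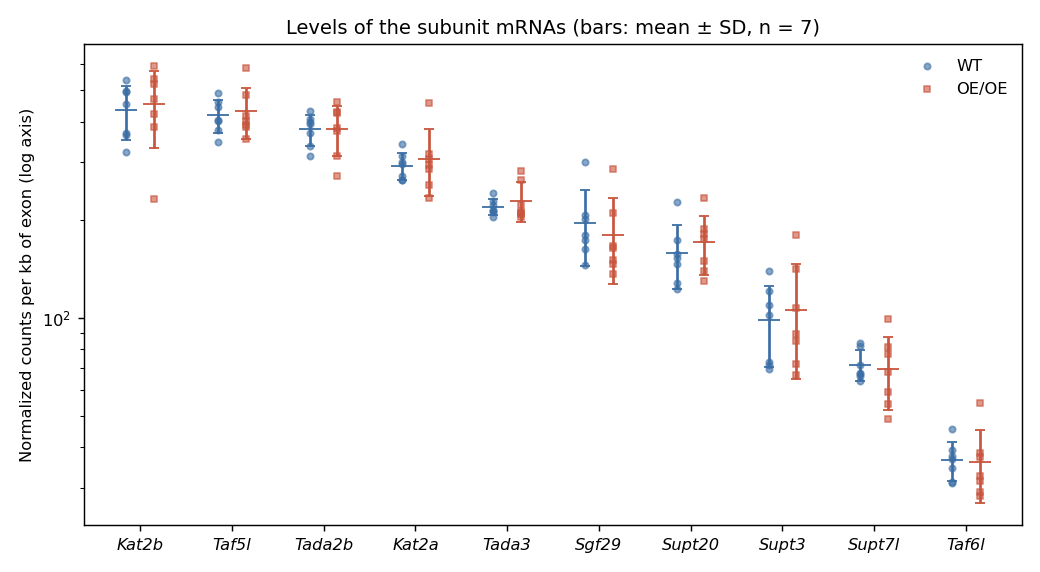
Normalized counts per kb of annotated exon (vertical log axis) of the 10 subunit mRNAs in WT (blue circles) and *OE/OE* (red squares) mice, ordered by the WT mean, with bars for mean ± SD (n = 7). The means fall from 433 for *Kat2b* to 36.6 for *Taf6l* in WT, and the genotypes overlap at every gene.

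Not all neighbours in that order were separate. Of the 9 neighbouring pairs of genes, 4 differed with an unadjusted exact sign-flip p under 0.05 over the 7 WT mice. *Tada2b* was 1.29-fold above *Kat2a* (p = 0.0312, 6 of 7 mice, exact), *Kat2a* 1.34-fold above *Tada3* (p = 0.0156, 7 of 7 mice, exact), *Supt20* 1.63-fold above *Supt3* (p = 0.0469, 6 of 7 mice, exact) and *Supt7l* 1.96-fold above *Taf6l* (p = 0.0156, 7 of 7 mice, exact). After adjustment over the 9, 0 passed, with 0.0703 the smallest adjusted p of these exact tests. *Kat2b* and *Taf5l* at the top were indistinguishable (1.03-fold, higher in 4 of 7 mice, exact p = 0.812). With the length of the longest transcript in place of the exon union, *Taf5l* came before *Kat2b* and *Supt7l* before *Supt3*.

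The variation of these mRNAs was split into shares of the littermate pair, the genotype and the rest. Of the sum of squares of the log2 values of a gene over the 14 mice, the pair took between 38.3% (*Kat2a*) and 94.1% (*Supt3*). For *Kat2a* the rest took 60.8%, more than the pair. The pair had 6 degrees of freedom and the genotype 1, so a larger share for the pair than for the genotype is no test of either. Over the 10 genes, the median was 73.3% for the pair, 0.878% for the genotype and 25.9% for the rest. The medians of all genes were 73.9%, 1.43% and 21.9%, so the subunits were much like the other genes of the table. *Supt3*, *Sgf29* (91.2%) and *Supt20* (90.1%) followed the pair most closely. The highest mice of both genotypes were in the same pair (pair 4 for *Supt3* and *Sgf29*, pair 5 for *Supt20*). For *Supt20*, the mice of pair 5 stood at 1.52 times the median of the other WT and 1.44 times the median of the other *OE/OE* mice. The labels do not give the days of preparation, so litter and a preparation shared within a pair cannot be told apart.

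The rest of SAGA and the complexes that share its subunits gave counts of the same kind. Of the other SAGA subunits in the table, 0 of 7 passed the unadjusted threshold (median log2 change -0.01), among them *Trrap*, which binds activators (0.02 ± 0.09 SE), *Taf10* (-0.01 ± 0.09 SE) and *Taf9b* (-0.06 ± 0.14 SE). Of the partners of USP22 in the deubiquitinase module and the USP22 paralogs, 0 of 6 passed (median 0.07). *Atxn7l3*, which activates the enzyme, changed by 0.07 ± 0.09 SE and *Eny2*, another adaptor, by -0.0022 ± 0.089 SE on the log2 scale, both inside their error. Of the ATAC-specific subunits 0 of 9 passed (median 0.08), of the TFIID subunits 0 of 12 (median 0.10) and of other histone acetyltransferases 0 of 11 (median 0.09), the last with *Ep300* at 0.15 ± 0.09 SE and *Crebbp* at 0.16 ± 0.08 SE. Without pair 4 the counts were 1 of 7, 1 of 6, 1 of 9, 1 of 12 and 3 of 11, where 8.47% of all genes passed. The shares of 0 over all pairs stand beside 3.81% over all genes, which lets few or none be called in lists this short. *Taf9* and *Usp51* were not analysed here.

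*Tada3* is the 1 subunit near the transgene. It lies on chromosome 6 (113366025 to 113377883, minus strand), 289 kb from *Gt(ROSA)26Sor*, the gene at the *ROSA26* locus. Within 0.5 Mb of it, 4 of 21 genes passed the unadjusted threshold, beside 3.81% of all genes, and the count was 7 without pair 4 and 2 without pair 8. *Setd5*, 0.032 kb away, rose in 7 of 7 pairs (log2 change 1.82 ± 0.08 SE, adjusted p = 1.70e-05 with limma), while *Gt(ROSA)26Sor* (-0.74 ± 0.28 SE), *Thumpd3* (-0.21 ± 0.07 SE) and the lipid droplet gene *Cidec* (-1.33 ± 0.35 SE), which is also on the adipocyte list, fell with adjusted p = 1.00. *Tada3* was not among them, nor were the genes on either side of it in the table, *Camk1* (-0.14 ± 0.10 SE) and *Arpc4* (-0.05 ± 0.09 SE).

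The positions of the remaining subunits on GRCm38 are those annotated in GENCODE M21. *Tada2b* (36473670 to 36484285, minus strand) and *Supt7l* (31514564 to 31527807, minus strand) are both on chromosome 5, and *Supt3* (44777152 to 45119290, plus strand) is on chromosome 17 with *Kat2b*. *Sgf29* is on chromosome 7 (126649309 to 126672925, plus strand), *Supt20* on chromosome 3 (54692807 to 54728766, plus strand), *Taf5l* on chromosome 8 (123996318 to 124021397, minus strand) and *Taf6l* on chromosome 19 (8774487 to 8786417, minus strand).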

How the data were processed

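Libraries were made with a TruSeq mRNA kit from mammary gland epithelial cells and sequenced as paired reads. According to the methods and the submitters' processing notes, the authors mapped the reads to mm10 with TopHat2 2.0.10, counted fragments per GENCODE gene with HTSeq 0.6.0, dropped genes without 10 or more fragments in 7 or more libraries and scaled the counts by DESeq 1.18.0 size factors. The deposited values are thus a signal on a linear scale, called normalized counts here, and no samples were pooled. Whole fragments were recovered from their steps (100% of values whole within 0.01 fragments). Depth sets the precision of each count.

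Groups and pairs came from the labels. The 10 members and the other lists were chosen with earlier results of these data known. Genotypes were compared with limma 3.58.1 under R 4.3.3, using lmFit followed by trended eBayes on log2(normalized count + 1), over all 16124 genes and 14 libraries, two-sided, with the littermate pair as a block and an unadjusted p of 0.05 or less as the threshold, as in the study. Benjamini-Hochberg adjustment was made over all genes. Adding 1 slightly understates the fold of low genes. The labels number the pairs and the design text and methods call them littermates, and their deviations from the group means correlated at 0.171 to 0.748. Ratios and level orders were tested by exact sign flips of 7 pairs or mice (128 patterns). Levels per kb used the union of annotated exons. With the pair as a block, or in sign flips of pair differences, p-values rest on how the difference between littermates varied over pairs. limma moderated this spread over all genes. Only the p-values of the level order rest on the spread between mice of 1 genotype.

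edgeR 4.0.16 (quasi-likelihood) and DESeq2 1.42.0 on the recovered fragments, other pseudocounts (0.1 and 10), a minimum mean of 50, no trend, no block, median centring, a marker score added to the model and leaving out each pair were alternatives. The named genes were the 10 members, *Usp22*, the paralogs *Tada2a*, *Taf5*, *Taf6* and *Taf9b*, and list or *ROSA26* genes that passed. *Trrap*, *Taf10*, *Atxn7l3*, *Eny2*, *Ep300*, *Crebbp*, *Camk1* and *Arpc4* were chosen after their values were seen. Promoter motifs were picked with the sequences in view, and all 10 members matched the RefSeq promoter table. The tests were checked on simulated counts.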

Additional observations from a re-analysis of the deposited data

Results flagged for a closer look

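In 4 of 32 groups of 7 values examined, 1 mouse stood farther from its nearest neighbour than Dixon's 95% critical value for 7 values allows, where chance gives about 1 in 20 groups, or 1.6 of 32. All 4 were mice of pair 4, whose *OE/OE* library was the highest of its group for 31.7% and the lowest for 31.3% of all genes. The groups share mice, and *Kat2a* enters both its own group and that of the ratio, so the 4 are not separate events. The share of all genes with such a gap was not counted. *Kat2a* was 1583 normalized counts in the *OE/OE* mouse, with the next at 1105 (gap 0.621 of the range). *Taf6l* was 275.3 in the same mouse, with the next at 192.7 (0.621). The ratio of *Kat2a* to *Kat2b* per kb was 1.96 there, with the next at 0.744 (0.817). *Sgf29* was 540.8 in the WT mouse of pair 4, with the next at 371.2 (0.606).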

How the results depend on the processing

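The 614 genes called became 182 with no replicate block, 3037 with the adipocyte score and 983 with the proliferation score as a covariate, 597 with edgeR and 626 with DESeq2, and between 381 (without pair 6) and 1366 (without pair 4) with a pair left out. Without pair 1 there were 1196. The count of subunits called was 0, and 0 with no replicate block, 1 with the adipocyte score (*Kat2b*) and 0 to 1 with a pair left out (*Supt20*, without pair 1). Of 180 alternative log2 changes of the 10 subunits, 178 kept their side of the threshold and 17 had the other sign, over a range of -0.27 to 0.35. The block changed no other call among the subunits. With pairs left out, the change in the *Kat2a* to *Kat2b* log2 ratio ran from -0.23 (without pair 4) to 0.12 and was -0.0095 without pair 8, that of *Tada2b* to *Tada2a* from -0.19 to 0.085 (without pair 4), and that of *Taf6l* to *Taf6* from -0.022 (without pair 4) to 0.073, with -0.017 without pair 6. The *Taf5l* to *Taf5* change stayed negative, from -0.16 to -0.053. The 4 neighbouring genes separated in the level order became 2 with the longest transcript or in *OE/OE*, and 2 to 4 without 1 WT mouse, among them 2 without pair 1, 6, 7 or 8, where 6 mice allow an exact p of 0.0312 at the least. Counts called in the SAGA, deubiquitinase, ATAC, TFIID and acetyltransferase lists reached at most 1, 1, 2, 2 and 3 under any alternative, and near *ROSA26* they ran from 2 to 7. The cause of these moves was not tested.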
